A study of Homo sapiens with 7 samples.

Results

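Interferons are secreted antiviral cytokines, and 9 genes that encode interferons or the chains of their receptors were followed here in human embryonic stem cells. The members were the rows of the deposited count table with the symbols IFNL1, IFNL2, IFNL3, IFNB1, IFNE, IFNAR1, IFNAR2, IFNLR1 and IL10RB, and all 9 were found among its 59251 rows. The cells were H9, an established pluripotent line, kept in the naive-state medium RSeT. DJL1 cells (3 libraries) and CTRL cells (4 libraries) were compared 48 h after transfection with guide RNA plasmids. Neither the protein that the guides direct nor the content of the CTRL plasmids is named in the labels. Both groups had 10 nM DZNep, which inhibits histone methylation, and 5 nM TSA, which inhibits histone deacetylases. Both also had the survival cocktail CEPT for the opening 16 h, in which Trans-ISRIB was at 0.7 µM, Emricasan at 5 µM and Chroman 1 at 50 nM beside polyamine, so no library is free of these agents. All libraries come from a single cell line.

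Cells that detect foreign or misplaced nucleic acid switch on IFNB1, the main type I interferon of cells other than leukocytes, and the type III interferons IFNL1, IFNL2 and IFNL3. Type I interferons bind a receptor built from IFNAR1 and IFNAR2, which is present on most cell types, whereas type III interferons bind IFNLR1 together with IL10RB, and IFNLR1 is found mainly on epithelia. Both receptors pass the signal through the kinases JAK1 and TYK2 to transcription factors that switch on the interferon-stimulated genes. Pluripotent stem cells are known for a weak interferon response.

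The promoters of IFNB1, IFNL1 and IFNL3 are shown because these ligand genes had most or all of their counts in DJL1 libraries. Each window runs from 250 bases before to 50 bases after the start of the gene, 5′ to 3′ on the strand of the gene, from RefSeq (GRCh38.p14). Windows were found for 8 of the 9 members. Capitals mark matches on either strand to the IRF half-site AANNGAAA, to a tandem IRF element (GAAA, any 2 bases, GAAA), which overlaps the half-site, and to an NF-kB site (GGGA, any 2 bases, TTCC).
IFNB1, chr9:21077893-21078192, minus strand: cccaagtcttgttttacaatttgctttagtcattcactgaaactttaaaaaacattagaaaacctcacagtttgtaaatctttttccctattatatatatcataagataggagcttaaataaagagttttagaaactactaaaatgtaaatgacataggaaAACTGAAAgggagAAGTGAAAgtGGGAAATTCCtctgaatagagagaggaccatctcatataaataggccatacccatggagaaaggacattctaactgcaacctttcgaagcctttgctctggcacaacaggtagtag
IFNL1, chr19:39296157-39296456, plus strand: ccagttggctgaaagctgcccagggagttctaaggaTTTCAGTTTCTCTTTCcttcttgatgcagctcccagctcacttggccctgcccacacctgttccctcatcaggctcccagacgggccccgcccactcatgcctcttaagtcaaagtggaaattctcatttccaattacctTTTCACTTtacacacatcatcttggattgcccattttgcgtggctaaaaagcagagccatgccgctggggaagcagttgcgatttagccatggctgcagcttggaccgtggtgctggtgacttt
IFNL3, chr19:39245201-39245500, minus strand: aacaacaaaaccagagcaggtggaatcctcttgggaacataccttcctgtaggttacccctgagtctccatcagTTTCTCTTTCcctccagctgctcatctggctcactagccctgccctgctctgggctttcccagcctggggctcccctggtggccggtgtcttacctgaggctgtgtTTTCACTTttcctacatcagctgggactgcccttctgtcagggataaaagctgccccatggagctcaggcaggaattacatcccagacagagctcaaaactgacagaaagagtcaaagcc

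The IFNB1 window held the IRF half-sites AACTGAAA and AAGTGAAA, which begin 89 and 76 bases before the start, and beside them the NF-kB match GGGAAATTCC, which begins 66 bases before it. The IFNL1 window held 3 half-sites, all on the opposite strand, and 2 overlapping tandem elements (GAAACTGAAA and GAAAGAGAAA). The IFNL3 window held 2 half-sites and the tandem element GAAAGAGAAA on the opposite strand. The IFNL2 window was identical to that of IFNL3 at 299 of 300 bases and differed by C31T (IFNL2 base, position counted from 1 at the 5′ end of the window, IFNL3 base). None of the windows of IFNE, IFNAR1, IFNLR1 and IL10RB held any of these motifs. Of 35116 windows of the same length, 22.8% held the half-site, 3.57% the tandem element and 1.61% the NF-kB motif. The AP-1 motif TGANTCA, searched in the same way, was in 7.71% of all windows and in none of the 8 members. These are matches of letters and say nothing about binding.

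Levels are in CPM, which is the count of a gene per 1000000 counts, after libraries were scaled to each other. Total counts ran from 34634882 to 37795742 in DJL1 libraries and from 62277489 to 76691997 in CTRL libraries, without overlap. The spread between libraries was 13.8% within DJL1 and 3.46% within CTRL, as edgeR's common biological coefficient of variation. It is a single value fitted over all tested genes, without counting error, and single genes can differ from it. Depth and spread thus differ with the group, and since the labels give no batch, a difference in preparation between the groups cannot be told apart from the transfection. The pluripotency gene POU5F1 stood at 5354 ± 269 CPM (SD, n = 3) in DJL1 and 5324 ± 73.1 CPM (SD, n = 4) in CTRL, and it was not called (edgeR adjusted p = 0.879). Of the 9 pluripotency markers the other 8 were called lower. All 9 together, with POU5F1 as the largest part, summed to 9126 to 10194 CPM in DJL1 and 11348 to 11583 CPM in CTRL. Of 7 tested markers of the naive state 6 were higher and 1 lower (5103 to 5977 CPM in DJL1, 2871 to 2999 CPM in CTRL). Of 8 markers of epithelium, the tissue known to respond to type III interferon, 4 were higher and 1 lower (1709 to 1784 CPM in DJL1, 1494 to 1507 CPM in CTRL). Among markers of immune cells, the pan-leukocyte gene PTPRC had 15 counts summed over the DJL1 libraries and 15 over the CTRL libraries. These sums are not scaled. Total counts summed to 109827435 in DJL1 and 268071178 in CTRL, so the same sum is a larger share in DJL1. PTPRC did not pass the filter on low counts and was not tested. The 10 immune markers together ran from 52.5 to 59.3 CPM in DJL1 and from 42.7 to 47.1 CPM in CTRL, of which HLA-DRA was the main part, and 3 of 8 tested were higher and 1 lower. Of 9 fibroblast markers 6 of 7 tested were higher, summing to 1047 to 1153 CPM in DJL1 and 731 to 752 CPM in CTRL, while DCN and LUM had at most 13 counts in all libraries of a group. Among all tested genes 27% were higher and 25.1% lower. The part of these other cells in the results below was not tested.

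IFNL1 was the ligand gene with the most counts, and its level was higher in every DJL1 library than in any CTRL library. IFNL1, on chromosome 19 (39296407 to 39298673, plus strand), had 92, 32 and 53 counts in DJL1 replicates 1, 2 and 3. In CTRL replicates 1 to 4 it had 3, 14, 1 and 14 counts, at close to double the depth. Scaled, it stood at 2.40, 0.913 and 1.43 CPM in the DJL1 libraries, against 0.0481, 0.184, 0.0161 and 0.212 CPM in the CTRL libraries. The groups did not overlap, and DJL1 replicate 1 was the highest library. In CPM the DJL1 libraries differed among themselves by more than the whole CTRL range. On the log2 scale the CTRL libraries spread more widely, from -4.23 to -2.005, against -0.0739 to 1.29 in DJL1. The mean was 1.58 ± 0.755 CPM (SD, n = 3) in DJL1 and 0.115 ± 0.0974 CPM (SD, n = 4) in CTRL. By edgeR's quasi-likelihood test over 26062 genes IFNL1 rose by 3.72 ± 0.53 on the log2 scale (SE, adjusted p = 2.55e-05, 95% interval 2.59 to 4.85). The same quantity from summed counts was a ratio of 13.3 (exact 95% interval 9.12 to 20.1, counting error only). IFNL1 passed the filter on low counts only through the DJL1 libraries, since 3 libraries at 0.161 CPM or more were needed and only 2 CTRL libraries reached that level. For IFNL1 the authors' deposited table has 4.07 on the log2 scale (adjusted p = 5.11e-05). In bulk RNA more cells of a type and more RNA per cell cannot be told apart, nor fewer cells and less RNA per cell.

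IFNL3 also had more counts in DJL1, although most of them came from 1 library, and IFNL2 had few counts in either group. IFNL3 had 6, 1 and 19 counts in DJL1 replicates 1, 2 and 3, against 1, 2, 0 and 0 counts in CTRL replicates 1 to 4. IFNL2 had 0, 1 and 8 counts in the DJL1 libraries, against 2, 3, 6 and 0 in the CTRL libraries. DJL1 replicate 3 held the most of both genes, whereas DJL1 replicate 1 held the most IFNL1. Neither gene passed the filter. From summed counts the ratio of DJL1 to CTRL was 20.9 for IFNL3 (exact 95% interval 6.41 to 108, from 26 and 3 counts) and 1.97 for IFNL2 (0.723 to 5.24, from 9 and 11 counts), with counting error only. Without DJL1 replicate 3 the ratio was 8.48 for IFNL3 (1.94 to 50.8) and 0.330 for IFNL2 (0.00767 to 2.27), and without CTRL replicate 2 it was 44.9 for IFNL3. In a fit with no filter, over 44410 genes, of which 16% were called higher, IFNL3 was called higher (adjusted p = 0.00213) but not without DJL1 replicate 3 (adjusted p = 0.181). IFNL2 was not called (adjusted p = 0.608), and its log2 fold change was 0.89 with all libraries and -1.50 without DJL1 replicate 3.

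The transcripts of IFNL2 and IFNL3 share long identical stretches, so reads can be split between their rows or lost. Of all windows of 50 bases in the IFNL2 transcript of GENCODE release 29, 32.0% occur unchanged in IFNL3, and of windows of 100 bases 5.17% do. IFNL1 shares none of its 808 windows of 50 bases with either. IFNL2 and IFNL3 together had 35 counts in DJL1 and 14 in CTRL, and even their sum did not pass the filter. Over all 3 lambda genes the summed level was 2.56, 0.970 and 2.16 CPM in DJL1 replicates 1, 2 and 3, against 0.0963, 0.250, 0.113 and 0.212 CPM in CTRL replicates 1 to 4. The groups did not overlap (exact permutation test, 2-sided, p = 0.0571, the smallest that 3 against 4 libraries can give). IFNL1 made up 83.5% of the 212 lambda counts in DJL1 (exact 95% interval 77.8 to 88.2%) and 69.6% of the 46 in CTRL (54.2 to 82.3%). These intervals overlap, and they cover counting error only, not the spread between libraries. By library the share was 93.9, 94.1 and 66.25% in DJL1 replicates 1, 2 and 3. In CTRL replicates 1 to 4 it was 50, 73.7, 14.3 and 100%, a range that holds all DJL1 values.

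IFNB1 was near the limit of detection, with counts in 2 of 3 DJL1 libraries and in 0 of 4 CTRL libraries. IFNB1, on chromosome 9 (21077104 to 21077942, minus strand), had 4, 2 and 0 counts in DJL1 replicates 1, 2 and 3. Summed over the group this was 0.0543 CPM in DJL1 (exact 95% interval 0.0199 to 0.118), against 0 CPM in CTRL, where 0 counts allow up to 0.0113 CPM (3 counts over the group). The DJL1 value was 4.83-fold that limit, and the lower end of its interval was 1.77-fold that limit. These values rest on 6 counts, 4 of them in DJL1 replicate 1. Without that library 2 counts were left, too few for a fold, and without DJL1 replicate 3 the DJL1 value was 7.27-fold the limit. DJL1 replicate 3, with the most IFNL2 and IFNL3, had no IFNB1 count, so the groups overlapped at 0. The gene did not pass the filter. In the fit with no filter it was called (adjusted p = 0.0426), and it was not called without any 1 of 6 of the 7 libraries (adjusted p = 0.0589 to 0.158), all but DJL1 replicate 3.

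IFNE, a type I interferon known for expression in the female reproductive tract without viral induction, did not follow IFNB1 in these libraries. It had 7, 1 and 1 counts in DJL1 replicates 1, 2 and 3, against 13, 12, 5 and 8 counts in CTRL replicates 1 to 4. In CPM it stood at 0.0794 ± 0.0894 (SD, n = 3) in DJL1 and at 0.142 ± 0.0545 (SD, n = 4) in CTRL, and the groups overlapped because DJL1 replicate 1 lay within the CTRL range. It did not pass the filter, and from summed counts the ratio of DJL1 to CTRL was 0.572 (exact 95% interval 0.243 to 1.20). DJL1 replicate 1 held 7 of the 9 DJL1 counts, and without it the ratio was 0.195 (0.0227 to 0.753, from 2 and 38 counts). In the fit with no filter the log2 fold change of IFNE was -0.83 (adjusted p = 0.509), and -2.31 without DJL1 replicate 1 (adjusted p = 0.128). The long noncoding gene MIR31HG, whose span on chromosome 9 (21454268 to 21559798) takes in IFNE, had 16 counts in DJL1 and 21 in CTRL. These 2 sums are not scaled, and the CTRL group had the greater total depth. Whether reads were shared between the rows of MIR31HG and IFNE was not tested.

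**Figure D1:**
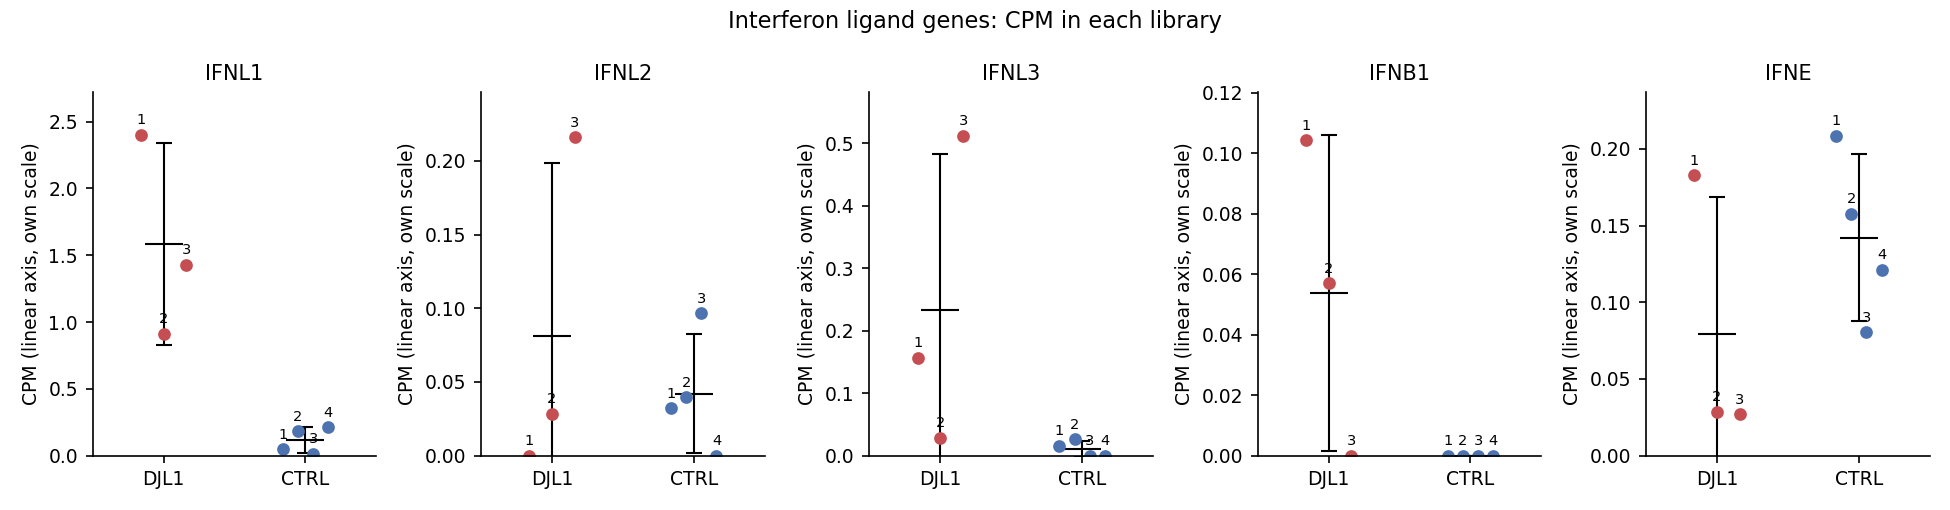
CPM of the 5 interferon ligand genes in each library, DJL1 in red and CTRL in blue, with replicate numbers, the mean as a line and the SD as bars; each panel has its own linear axis from 0. IFNL1 lies between 0.913 and 2.40 CPM in DJL1 and at or below 0.212 CPM in CTRL, while DJL1 replicate 3 is the highest library for IFNL2 and IFNL3.

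The receptor chains were expressed in all libraries and differed much less than IFNL1, and IFNAR2 was the only one of the 4 called. IFNAR2, the chain that binds type I interferon with high affinity and carries JAK1, lies on chromosome 21 (33229938 to 33265664, plus strand). It stood at 10.1, 10.3 and 11.7 CPM in DJL1 replicates 1, 2 and 3, against 14.6, 14.7, 14.3 and 14.3 CPM in CTRL replicates 1 to 4. All DJL1 libraries lay below all CTRL libraries, and the CTRL libraries differed by less than 1 CPM. IFNAR2 fell by 0.43 on the log2 scale (SE 0.08, edgeR adjusted p = 0.000202, 95% interval -0.59 to -0.27), to 10.7 ± 0.846 CPM (SD, n = 3) in DJL1 against 14.4 ± 0.198 CPM (SD, n = 4) in CTRL. In the authors' deposited table its value is -0.42 on the log2 scale (adjusted p = 0.00027).

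IFNAR1, the chain that carries TYK2, missed the threshold by a small margin. It lies on chromosome 21 (33324395 to 33359864, plus strand). It stood at 19.02, 17.7 and 16.8 CPM in the DJL1 libraries, against 19.5, 20.2, 20.7 and 19.1 CPM in the CTRL libraries. The groups did not overlap, but DJL1 replicate 1 and CTRL replicate 4 were almost level. The log2 fold change was -0.16 ± 0.07 (SE, edgeR adjusted p = 0.0577, unadjusted p = 0.0307), with means of 17.8 ± 1.13 CPM (SD, n = 3) in DJL1 and 19.9 ± 0.734 CPM (SD, n = 4) in CTRL. Without DJL1 replicate 1 it was called, at -0.22 (adjusted p = 0.0138), and DESeq2 also called it (-0.17, adjusted p = 0.0468). Of 20 alternative settings 4 called IFNAR1 and 16 did not. The highest edgeR adjusted p was 0.145, without CTRL replicate 3. In the authors' deposited table the value of IFNAR1 is -0.14 (adjusted p = 0.0881).

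IFNLR1 and IL10RB, the chains of the type III receptor, were not called in these libraries. IFNLR1, the ligand-specific chain on chromosome 1 (24154168 to 24187289, minus strand), stood at 5.92, 4.79 and 4.29 CPM in DJL1 replicates 1, 2 and 3, against 5.22, 4.84, 3.83 and 5.74 CPM in CTRL replicates 1 to 4. The groups overlapped over most of their range. Its log2 fold change was 0.03 ± 0.15 (SE, edgeR adjusted p = 0.89), with a 95% interval of -0.29 to 0.35. IL10RB, the chain shared with the receptors of IL-10, IL-22 and IL-26, lies on chromosome 21 (33266367 to 33310182, plus strand). It stood at 4.02, 4.59 and 4.32 CPM in DJL1, against 3.82, 3.54, 2.90 and 4.07 CPM in CTRL. DJL1 replicate 1 lay just below CTRL replicate 4, so the groups overlapped. The log2 fold change was 0.27 ± 0.14 (SE, edgeR adjusted p = 0.131), with a 95% interval of -0.04 to 0.57. The authors' deposited table has 0.05 for IFNLR1 (adjusted p = 0.812) and 0.29 for IL10RB (adjusted p = 0.0943) on the log2 scale.

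**Figure D2:**
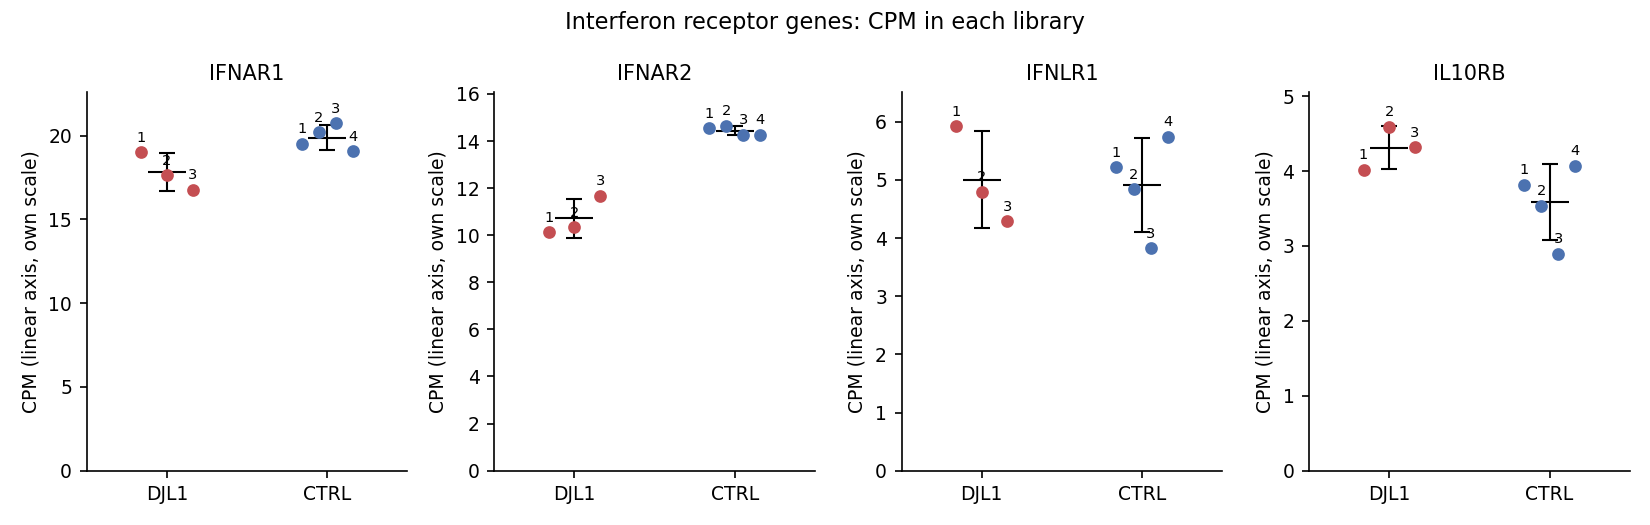
CPM of the 4 receptor genes in each library, DJL1 in red and CTRL in blue, with replicate numbers, the mean as a line and the SD as bars, on linear axes from 0. IFNAR2 averages 10.7 CPM in DJL1 and 14.4 CPM in CTRL without overlap, and IFNLR1 and IL10RB overlap between the groups.

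Of the 9 members 5 passed the filter, of which 1 was higher (IFNL1), 1 lower (IFNAR2) and 3 not called. Over all 26062 tested genes 52% were called in either direction, 27% higher and 25.1% lower, and 53.6% did not overlap between the groups, so counts of this size are not a result about the members. Of the 7768 tested genes with a mean under 1 CPM, the class of IFNL1, 19.6% were called higher and 5.25% lower. Of the 8964 genes of 10 to 100 CPM, the class of IFNAR1 and IFNAR2, 27.5% were higher and 41.4% lower, and their median log2 fold change was -0.08. Of the 7170 genes of 1 to 10 CPM, the class of IFNLR1 and IL10RB, 35.5% were higher and 18% lower.

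Ratios of counts within a library do not depend on the scaling between libraries. The ratio of IFNAR2 to IL10RB, neighbours on the same strand of chromosome 21, was 2.52, 2.25 and 2.71 in DJL1 replicates 1, 2 and 3, against 3.81, 4.14, 4.93 and 3.502 in CTRL replicates 1 to 4. Every DJL1 library lay below every CTRL library. The difference of the log2 ratios was -0.71, from 1.31 ± 0.135 (SD, n = 3) in DJL1 and 2.02 ± 0.210 (SD, n = 4) in CTRL (exact permutation test, 2-sided, p = 0.0571, the smallest possible). The ratio of IFNAR2 to IFNAR1 was 0.532, 0.585 and 0.696 in DJL1, against 0.746, 0.725, 0.688 and 0.748 in CTRL. Here DJL1 replicate 3 fell inside the CTRL range, and the log2 difference was -0.27 (exact permutation p = 0.114). The ratio of IL10RB to IFNLR1 was 0.678, 0.958 and 1.01 in DJL1, against 0.732, 0.731, 0.756 and 0.7098 in CTRL. It was steady over the CTRL libraries, and DJL1 replicate 1 lay below all of them while replicates 2 and 3 lay above (log2 difference 0.25, exact permutation p = 0.286). These p-values belong to 4 ratios compared and are not adjusted, since none could pass 0.05.

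**Figure D3:**
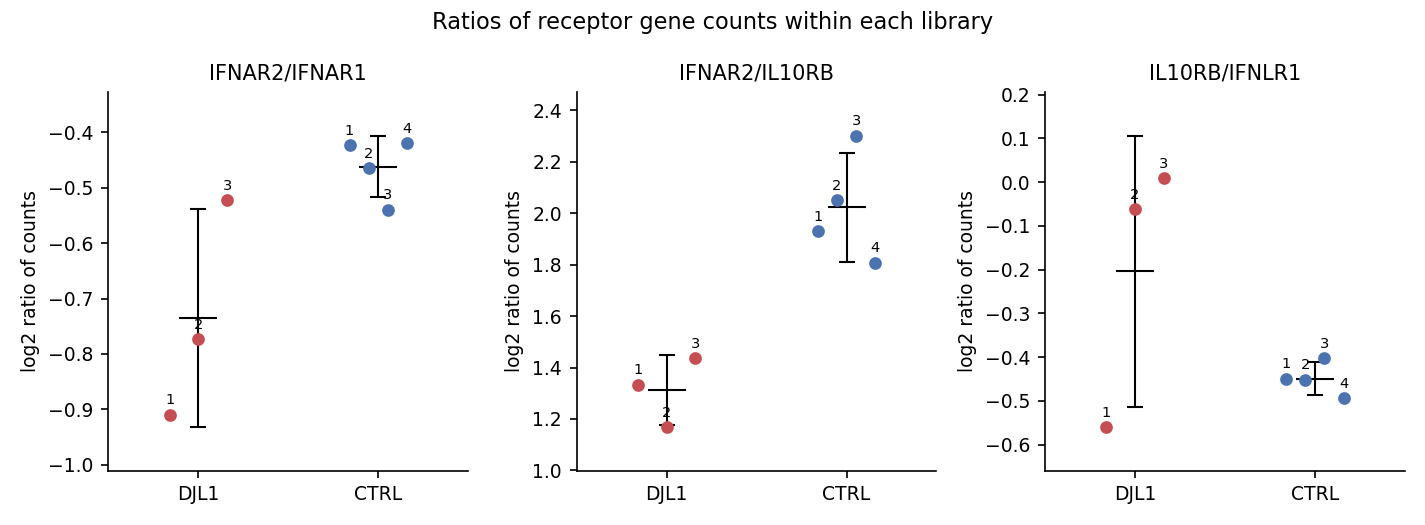
log2 ratio of the counts of pairs of receptor genes within each library, DJL1 in red and CTRL in blue, with replicate numbers, the mean as a line and the SD as bars. The ratio of IFNAR2 to IL10RB averages 1.31 in DJL1 and 2.02 in CTRL on the log2 scale without overlap.

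Per length of exon (CPM per 1000 bases, with lengths from GENCODE release 29), the type I chains had the highest means in both groups and the ligands other than IFNL1 the lowest. In DJL1 the order was IFNAR1 (2.83 ± 0.179, SD, n = 3), IFNAR2 (2.32 ± 0.183), IFNL1 (1.84 ± 0.881), IFNLR1 (1.02 ± 0.170), IL10RB (0.948 ± 0.0632), IFNL3 (0.302 ± 0.325), IFNL2 (0.111 ± 0.159), IFNB1 (0.0626 ± 0.0608) and IFNE (0.0538 ± 0.0606). In CTRL it was IFNAR1 (3.16 ± 0.117, SD, n = 4), IFNAR2 (3.13 ± 0.0429), IFNLR1 (0.996 ± 0.164), IL10RB (0.787 ± 0.111), IFNL1 (0.134 ± 0.114), IFNE (0.0963 ± 0.0370), IFNL2 (0.0570 ± 0.0545), IFNL3 (0.0137 ± 0.0168) and IFNB1 (0). IFNAR1 and IFNAR2 did not differ beyond their spread in CTRL, nor did IFNL1, IFNE and IFNL2 there, and in DJL1 IFNL1 did not differ beyond its spread from IFNAR2 or from IFNLR1, nor IFNLR1 from IL10RB, nor the 4 lowest ligands among themselves. IFNL1 lay below both type III receptor chains in CTRL and above them on average in DJL1, with DJL1 replicate 2 near their level.

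Profiles of log2 CPM over the 7 libraries, less the CTRL mean, were compared with 13481 genes of at least 1 CPM. Symbols with the form of clone, noncoding RNA or pseudogene names were left out. That rule went by letters alone, so it also dropped coding genes such as USP18, and some noncoding genes may remain. Among the genes kept, the closest to IFNL1 were OAS2 and OASL, 2 members of the oligoadenylate synthetase family (root mean square difference 0.70 and 0.72). The nearest to IFNAR2 were DENND2B and SPG21 (0.0145 and 0.0163), and the nearest to IFNAR1 were CBWD1 and LRRC40 (0.0257 and 0.0275). IFNLR1 was nearest to GNG7 and NOVA1 (0.0821 and 0.0905), and IL10RB to GINS3 and EMSLR (0.0903 and 0.0928). The distances of IFNL1 were far larger than those of the receptor genes. IFNL1 had only 1 to 14 counts in a CTRL library, which by itself widens such distances, and genes under 1 CPM were not searched. Whether IFNL1 lacks a near match was thus not tested.

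On chromosome 21 the receptor genes lie side by side. IFNGR2, the second chain of the interferon-gamma receptor and the next receptor gene after IFNAR1, rose by 0.47 on the log2 scale (SE 0.05), to 45.4 ± 1.33 CPM (SD, n = 3) in DJL1 against 32.7 ± 1.24 CPM (SD, n = 4) in CTRL. IFNAR2 fell, and IFNAR1 and IL10RB were not called. Of 12 other listed genes of the region 3 were higher and 7 lower, with a median log2 fold change of -0.13, where 27% of all tested genes were higher and 25.1% lower with a median of 0.01. GART, an enzyme of purine synthesis, fell by 0.54, CRYZL1 by 0.64, DONSON, a replication factor, by 0.41 and TMEM50B by 0.40. IL10RB-DT, a noncoding gene between IFNAR2 and IL10RB, was not called (log2 fold change 0.76 ± 0.44, SE, edgeR adjusted p = 0.167). Since the strand setting of the counting is not given, reads of overlapping genes on opposite strands may not be told apart. The readthrough gene IFNAR2-IL10RB of RefSeq has no row in the count table.

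**Figure D4:**
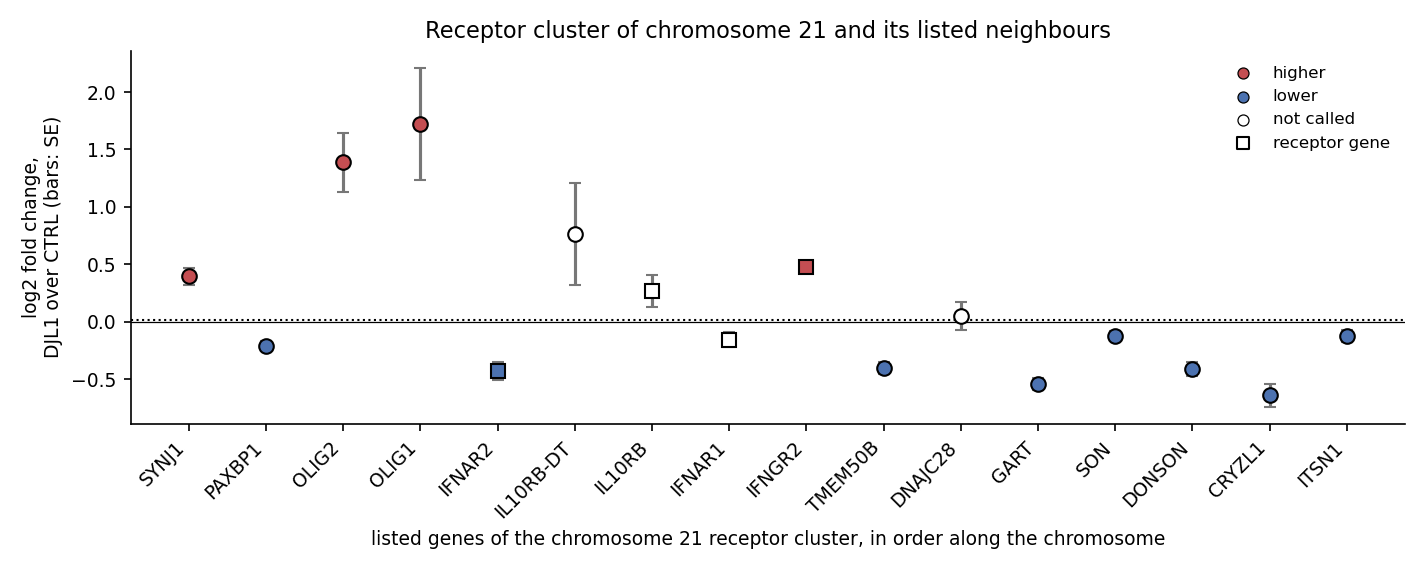
log2 fold change of DJL1 over CTRL for 16 tested genes in their order along chromosome 21, with standard errors; squares are receptor genes, red is called higher, blue lower and white not called, and the dotted line is the median of all tested genes. IFNAR2 (-0.43) and IFNGR2 (0.47) lie on opposite sides of it, with IL10RB and IFNAR1 between them.

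Neighbours of the other members are given against the 27% higher and 25.1% lower among all tested genes, and nothing particular to them is read from the counts. Around the lambda genes on chromosome 19, where 9 listed genes were tested, 1 was higher and 5 were lower, with a median of -0.20, and those named by the rule were PLEKHG2 (-0.54), TIMM50 (-0.31), RPS16 (-0.21) and PAF1 (-0.20), all lower. Around IFNB1 and IFNE on chromosome 9, 2 of 7 were higher and 3 lower. The cell cycle inhibitor genes CDKN2B and CDKN2A rose by 1.82 and 1.56, and MTAP, a methionine salvage enzyme, and KLHL9 fell by 0.60 and 0.25. Around IFNLR1 on chromosome 1, 4 of 8 were higher and 2 lower. Its neighbour IL22RA1, a chain that pairs with IL10RB to bind IL-22, rose by 1.12 (SE 0.17), the epithelial transcription factor gene GRHL3 by 1.60 and MYOM3 by 1.23, while SRSF10 fell by 0.46.

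Of 84 other genes of the interferon pathway in 7 lists, 61 were tested, of which 41 were higher, 12 lower and 8 not called. Their median log2 fold change was 0.64, against 0.01 over all tested genes, where 27% were higher and 25.1% lower. The lists were chosen with earlier results of these data known, and the target genes were known to be high.

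Other interferon genes gave almost no reads. None of 17 passed the filter, and 10 had 0 counts in all 7 libraries. Named after their values were seen, IFNL4 had 19 counts in DJL1 and 16 in CTRL, and IFNG had 10 in DJL1 and 11 in CTRL. These sums are not scaled. Total counts summed to 109827435 in DJL1 and 268071178 in CTRL, so both genes had a larger share in DJL1. By library IFNL4 ran from 1 to 10 counts in DJL1 and from 1 to 7 in CTRL, and IFNG from 3 to 4 and from 0 to 6. Neither difference was tested. The 17 together ran from 0.108 to 0.522 CPM in DJL1 libraries and from 0.0802 to 0.197 CPM in CTRL libraries, and these ranges overlap. Of 6 ligands of the related IL-10 family 2 were tested, IL24 and IL20, which signal through IL20RB and not through IL10RB. IL24 fell by 0.63 (SE 0.11), to 4.14 ± 0.116 CPM (SD, n = 3) in DJL1 against 6.39 ± 0.304 CPM (SD, n = 4) in CTRL, and IL20 rose by 1.43 (SE 0.38).

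Among 8 related receptor chains of the class II cytokine family, 5 of 7 tested were higher, 1 was lower (IFNGR1) and 1 not called (IL20RA). For all tested genes the shares were 27% higher and 25.1% lower. F3, which encodes tissue factor and is a distant member, rose by 0.64, and IL20RB, a chain of the IL-20 and IL-24 receptors, also by 0.64. The list's median was 0.64, whereas the 4 receptor members ran from -0.43 to 0.27. Whether members and related chains differ as groups was not tested.

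Among genes that lead to interferon production more were higher than lower. Of 18 tested, 10 were higher and 4 lower, with a median of 0.40, where 27% of all tested genes were higher and 25.1% lower. IFIH1, the sensor of long double-stranded RNA, rose by 3.64 (SE 0.10). The transcription factor genes IRF1 and JUN rose by 0.83 and 0.69, to 17.98 ± 1.82 CPM (SD, n = 3) in DJL1 against 10.1 ± 0.394 CPM (SD, n = 4) in CTRL for IRF1. MAVS, the mitochondrial adaptor on which IFIH1 acts, fell by 0.48 (SE 0.04), to 71.7 ± 0.833 CPM (SD, n = 3) in DJL1 against 100.1 ± 1.83 CPM (SD, n = 4) in CTRL.

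Genes that act at the receptors went both ways, as all tested genes did (27% higher and 25.1% lower). Of 7 signalling genes 3 were higher, 3 lower and 1 not called. JAK1, the kinase bound by IFNAR2, rose by 0.51 (SE 0.05), to 37.2 ± 2.09 CPM (SD, n = 3) in DJL1 against 26.1 ± 0.604 CPM (SD, n = 4) in CTRL. TYK2, the kinase bound by IFNAR1, fell by 0.49 (SE 0.05), to 45.2 ± 1.15 CPM (SD, n = 3) in DJL1 against 63.3 ± 2.79 CPM (SD, n = 4) in CTRL. The arginine methyltransferase gene PRMT5 fell by 0.43. Of 8 feedback inhibitors 4 were higher and 3 lower. USP18, which binds IFNAR2 and dampens type I signalling, rose by 0.76 (SE 0.10), and SOCS3 and ISG15 rose by 0.97 and 1.86, while the phosphatase gene PTPN11 fell by 0.28. Of 20 interferon-stimulated target genes 18 of 19 tested were higher and IFITM1 was not called, with a median of 2.30. IFIT1 and IFIT3, which act against viral RNA, rose by 3.38 and 3.15, and the antiviral GTPase gene MX1 by 1.92.

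**Figure D5:**
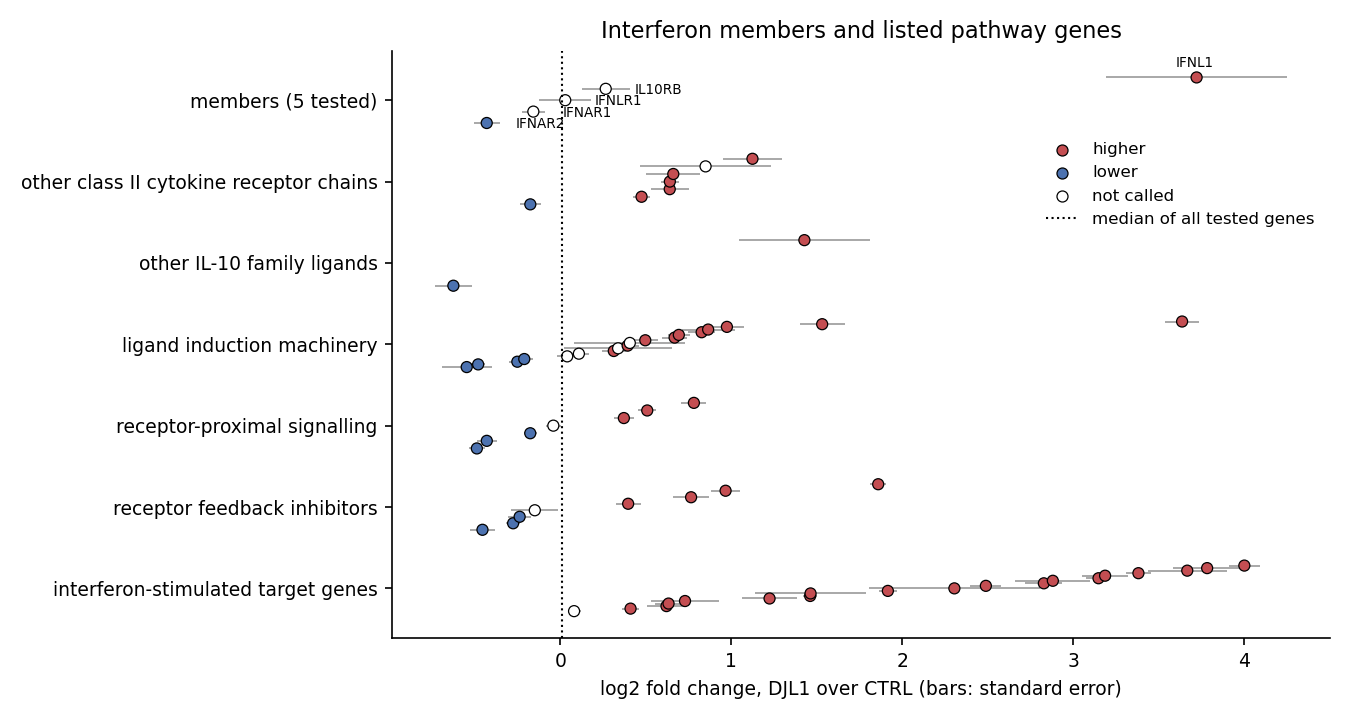
log2 fold change of DJL1 over CTRL with standard errors for the 5 tested members and for 6 lists of pathway genes; red is called higher, blue lower and white not called, and the dotted line is the median of all tested genes. IFNL1 stands at 3.72, and the receptor members lie between -0.43 and 0.27.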

How the data were processed

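Poly(A) RNA was sequenced from 3 DJL1 and 4 CTRL libraries, grouped by sample title. Raw counts deposited by the authors, with gene symbols as rows and, per the file headers, 1 column a library, were used unchanged. Tools listed in the submitters' processing notes are HISAT2 2.2.1, Subread 1.5.0, featureCounts and Trim Galore 0.4.0, and the builds are GRCh38 and hg38. Per the labels the library kit is directional, but how the counting treated strand and multi-mapped reads was not found in the labels or headers. The authors' deposited table of their own comparison gives, per the file headers, log2 fold changes with raw and adjusted p-values, and holds 5 of the 9 members among 20199 genes. A deposited table of log values, whose transform is not named in its header, was not used.

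The filter was filterByExpr of edgeR, with 10 as minimum count and 15 as minimum total, and 26062 of 59251 rows were kept. Counts were scaled by TMM and compared with edgeR's quasi-likelihood test, robust, 2-sided, with Benjamini-Hochberg adjustment at 0.05. Standard errors are the fold change over the root of its F statistic. log2 CPM used a prior count of 2. The software was Python 3.11.15 and R 4.3.3, with DESeq2 1.42.0, edgeR 4.0.16 and limma 3.58.1. Intervals and limits on sums of counts cover counting error only. Whether each replicate was its own culture is not stated, so p-values reflect spread among these samples that may be technical alone. Per the labels the treatment includes cell sorting, which the design text leaves out. All levels are shares of a scaled library, so a change in total RNA per cell could not be seen.

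The members and lists were chosen with earlier results of these data known. The rule for names took all 9 members, from each list up to 4 tested genes in order of adjusted p, and the 2 genes nearest in profile to each tested member; 1 gene that it took is not reported here. The alternatives were DESeq2, limma-voom with 1 variance or a variance for each group, other scaling factors, other filters, counts thinned to the smallest library, a threshold of 0.01, sums of neighbouring rows, a replicate block and each library left out.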

Additional observations from a re-analysis of the deposited data

How the results depend on the processing

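Over the alternatives, 1 member was called higher with the main settings, 3 with no filter (IFNL1, IFNL3 and IFNB1) and 0 with at least 1 CPM in at least 3 libraries, a filter that leaves IFNL1 out. The count of members called lower was 1, and 2 with DESeq2, with relative log expression factors and with no filter, where IFNAR1 joined IFNAR2; with 1 library left out it ran from 1 to 2, the higher value being without DJL1 replicate 1. IFNL1 kept its direction and call in all 19 alternatives that tested it (log2 fold change 3.28 to 4.21, adjusted p up to 0.000448), as IFNAR2 did (-0.51 to -0.40, adjusted p up to 0.00145). IFNLR1 and IL10RB were called in none. IFNLR1 was at -0.12 when DJL1 replicate 1 was left out and at 0.12 when DJL1 replicate 3 was, and IL10RB was between 0.18 and 0.34. Pathway genes called higher numbered 39 to 43 and those called lower 11 to 12. The sum of IFNL2 and IFNL3 gave no value because it did not pass the filter. The fits with no filter and 1 library left out, and the ratios of summed counts without 1 library, were chosen after the data were seen.

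Replicate numbers are shared between the groups, but no label says that they pair, and deviations of same-numbered libraries did not correlate (r = -0.01, -0.04 and -0.02 across genes). With the replicate number as a block 1 member was higher and 1 lower, IFNL1 at 4.21 and IFNAR2 at -0.44. CTRL replicate 4 has no DJL1 library of the same number, so in that fit it does not enter the difference between the groups. Depth limits IFNL2, IFNL3, IFNB1 and IFNE, which had 9, 26, 6 and 9 counts over all DJL1 libraries and 11, 3, 0 and 38 over all CTRL libraries. These are sums before scaling.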
